A study of Mus musculus with 8 samples.

Results

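The core enzymes of glycolysis were examined in RNA-seq counts of *iMLL-AF9* cells treated with IOX5, an inhibitor of the HIF prolyl hydroxylases (PHDs), or with DMSO, the vehicle control. The pathway carries glucose to pyruvate in a chain of steps, and the genes described here encode the enzymes from glucose-6-phosphate isomerase onward: *Gpi1*, *Pfkl*, *Pfkp*, *Aldoa*, *Aldoc*, *Tpi1*, *Pgk1*, *Pgam1*, *Eno1* and *Pkm*. They were picked out by symbol in the GENCODE M21 annotation and make up 10 of the 54838 genes listed. The 10 symbols were carried by 11 rows, because a neighboring second *Aldoa* locus (ENSMUSG00000114515) shares the name. That row held 0 to 7 reads per sample and 20 reads in all, so *Aldoa* below stands for ENSMUSG00000030695. All 10 genes passed the filter on low counts. Glyceraldehyde-3-phosphate dehydrogenase (*Gapdh*) and the isozymes with few reads are not among the 10 and are given only beside them, to complete each step.

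The cells carry a doxycycline-inducible allele of *MLL-AF9*, a fusion oncogene of acute myeloid leukemia, and both groups share it. The labels give bone marrow as the tissue, WT as the genotype and leukemic stem cells as the cell type, whereas the description of the series calls the cells preleukemic. The labels name no other allele or agent that separates the groups: 4 samples received DMSO and 4 received IOX5, numbered 1 to 4 within each. The dose of IOX5, the length of exposure, whether doxycycline was present during it, the age of the source animals and whether the 4 samples of a group were separate cultures are not given for these samples in the sources used here, although the methods state a dose for cultured cells and an age range for animals in general. The p-values below therefore measure the spread between these samples, which may be technical. Reads counted on genes ranged from 12343770 to 14116054 in the DMSO samples and from 11351507 to 12708888 in the IOX5 samples. The leukocyte gene *Ptprc* (449 CPM in DMSO), the progenitor receptor *Kit* (74.7), the myeloid enzyme *Mpo* (2195) and the leukemia-associated homeobox genes *Hoxa9* (250.2) and *Meis1* (104) were all expressed, whereas the T cell genes *Cd4*, *Cd8a* and *Cd3g* and the B cell gene *Ms4a1* had 0 reads. Among other T and B cell genes examined, *Trac* held 11 reads in all samples, *Cd79a* 9, *Pax5* 4, *Cd3d* 3 and *Cd3e* 1. The B cell gene *Ighm* was at 48.5 CPM in DMSO. Among the other progenitor genes examined, *Flt3* was low, at 1.40 CPM in DMSO. *Hoxa10*, *Itgam*, *Csf1r*, *Cd34*, *Spi1* and *Myb* lay between 49.9 and 331 CPM. Some of these levels differed widely within the group. In DMSO replicates 1 to 4, *Mpo* was at 1339, 984, 3380 and 3077 CPM and *Cd34* at 26.0, 23.2, 133 and 153 CPM.

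Glycolysis splits glucose into pyruvate in the cytosol and yields ATP without oxygen. Most of its enzymes exist as isozymes from separate genes, which are used to different extents in liver, muscle, brain and blood cells. Genes of the pathway are among the best-known targets of the hypoxia-inducible factors (HIFs), transcription factors whose α subunits are hydroxylated by PHDs and then degraded. HIF binds DNA at a short core with the letters ACGTG or GCGTG. The comparison of IOX5 with DMSO therefore addresses how the transcripts of each step and each isozyme stand when PHDs are inhibited.

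To show what lies upstream of these genes, the 250 bases before each RefSeq transcript start (GRCm38.p6) were searched for ACGTG and GCGTG on both strands, with overlapping matches counted separately. All 10 genes matched, with 16 distinct windows. The letters occurred in 12 of the 16 windows (75%), against 38.6% of 32851 windows of the same length over all genes, and ACGTG occurred in 5 (31.25%), against 16.6%. Windows of 1 gene can overlap and share a site, as for *Aldoa* and *Eno1*, and by gene 8 of 10 held a match and 4 of 10 held ACGTG. The 32851 windows were taken whether or not their genes were expressed here. No share by gene, or among genes of like abundance, was computed, so these percentages do not measure an enrichment. Upstream sequences of 4 genes are shown for genes the results turn on: *Pgk1* and *Pfkl*, which had the largest fold changes among the genes called below, and *Pfkp* and *Pgam1*, which were not called. Each is written 5′ to 3′ along the gene, with the motif letters or their reverse complement in capitals, and bases in an annotated UTR were left off. All 4 stretches lie outside annotated exons, 3 of them upstream of the gene and that of *Pfkl* in an intron of its longest gene model.
*Pgk1*, chrX:106186850-106187099, plus strand: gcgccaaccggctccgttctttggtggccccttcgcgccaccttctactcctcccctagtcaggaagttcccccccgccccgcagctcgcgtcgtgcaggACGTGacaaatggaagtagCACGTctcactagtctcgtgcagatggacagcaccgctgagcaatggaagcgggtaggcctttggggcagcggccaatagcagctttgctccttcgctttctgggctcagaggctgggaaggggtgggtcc
*Pfkl*, chr10:78009808-78010004, minus strand: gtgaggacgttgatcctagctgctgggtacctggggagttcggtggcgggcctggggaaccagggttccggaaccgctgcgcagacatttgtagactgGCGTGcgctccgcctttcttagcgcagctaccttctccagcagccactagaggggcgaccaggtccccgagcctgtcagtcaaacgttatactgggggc
*Pfkp*, chr13:6648778-6649021, minus strand: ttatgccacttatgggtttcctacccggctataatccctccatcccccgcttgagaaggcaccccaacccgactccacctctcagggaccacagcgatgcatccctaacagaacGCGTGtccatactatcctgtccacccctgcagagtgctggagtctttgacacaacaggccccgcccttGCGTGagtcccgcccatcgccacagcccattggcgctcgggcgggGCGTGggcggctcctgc
*Pgam1*, chr19:41911621-41911870, plus strand: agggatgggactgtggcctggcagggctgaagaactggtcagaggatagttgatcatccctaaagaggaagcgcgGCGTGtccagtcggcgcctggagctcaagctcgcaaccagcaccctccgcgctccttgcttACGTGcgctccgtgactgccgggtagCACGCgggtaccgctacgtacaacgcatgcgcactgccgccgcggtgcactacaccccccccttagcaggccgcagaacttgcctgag
The *Pgk1* window held 2 matches, both ACGTG and between 131 and 150 bases before the start. *Pfkl* held 1, of the GCGTG form. *Pfkp* and *Pgam1* each held 3 matches, a number reached by 6.58% of all windows. No match was found in the single windows of *Gpi1* and *Tpi1*. Matches thus stood before genes that were called below and genes that were not, and 2 called genes had none. A match is a description of the letters and not of binding, and its absence concerns this window alone.

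Before the treatment was compared, the levels in the DMSO samples were put on a common scale, CPM (counts scaled to a common library size) per kilobase of annotated exon. *Aldoa*, the main aldolase, stood highest at 625 ± 39.8 CPM per kb (SD, n = 4), rank 34 of the 12402 genes ranked. It was followed by pyruvate kinase *Pkm* at 532 ± 38.0, *Pgk1* at 419 ± 48.7, *Eno1* at 352 ± 12.3 and *Tpi1* at 292 ± 28.3. The second part of the order was *Gpi1* at 157 ± 7.72, *Pgam1* at 86.6 ± 2.78, *Pfkl* at 37.3 ± 3.72, *Pfkp* at 22.8 ± 3.38 and *Aldoc* at 10.2 ± 3.40. *Pfkl*, *Pfkp* and *Aldoc* were thus the 3 lowest, by either measure of length used here, and *Aldoc* ranked 5063. Among neighbors in this order, *Pgk1* (lowest sample 349) and *Eno1* (highest sample 368) overlapped across the DMSO samples, and the other neighboring genes did not. With the longest transcript as the length, *Eno1* moved to 934 CPM per kb, above *Pgk1* at 515. The order of *Pfkl* and *Pfkp* also depends on the *Pfkp* transcript taken as the length, as given below for phosphofructokinase.

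The levels of several of these genes are uncertain because they have near-identical copies in the genome, and the counting sets aside reads with several equally good positions. Of all stretches of 85 bases, the read length, in the *Pgk1* transcript, 67.3% occur in another annotated gene, all 3 of them processed pseudogenes. The share was 62.7% for *Eno1*, with the retained copy *Eno1b* among the matches, 40.3% for *Pgam1*, 11.2% for *Pkm* and 79.4% for *Gapdh*, and it was 0% for *Pfkl*, *Pfkp*, *Pfkm* and *Aldoc*. Reads of the phosphofructokinase isozymes and of *Aldoc* are thus told apart at this length. *Pkm* also shares 767 bases of exon with *Gm49759* on the same strand. *Gpi1*, *Pfkp*, *Tpi1* and *Aldoa* overlap genes on the opposite strand, and the counting kept the strands apart, since *Xist* held 105071 reads and its antisense partner *Tsix* 21.

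Glycolytic transcripts were higher with IOX5 at nearly every step. The fold change was above 0 for 10 of 10 genes, and 7 of them, *Gpi1*, *Pfkl*, *Aldoa*, *Tpi1*, *Pgk1*, *Eno1* and *Pkm*, rose at an adjusted p under 0.05 in edgeR's quasi-likelihood test, which was fitted and adjusted over all 12405 genes tested. None fell. Of all genes tested 2.02% were called, 0.774% higher and 1.25% lower. Among the 4810 genes at least as abundant as *Aldoc*, the least abundant of the 10, 1.27% were called higher, and among the 1283 at least as abundant as *Pgam1*, the next, 1.87%. The median log2 fold change was 0.41 over the 10 genes and 0.017 over all genes tested, of which 52.8% had a fold change above 0. For the same 7 genes every IOX5 sample was above every DMSO sample, a separation that 5.98% of all genes showed, while 8.3% showed the opposite one. Together the 10 genes took up 1.04%, 0.887%, 0.990% and 1.01% of the reads on genes in DMSO replicates 1 to 4 and 1.26%, 1.35%, 1.29% and 1.37% in IOX5 replicates 1 to 4, so that the groups did not overlap. The share of mitochondrial reads also moved with the treatment without overlap, at 1.29%, 1.27%, 1.365% and 1.370% in DMSO replicates 1 to 4 and 1.54%, 1.41%, 1.51% and 1.372% in IOX5 replicates 1 to 4, and its part in the result was not tested. As these are bulk samples, more cells with high levels and more RNA per cell cannot be told apart.

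When the replicate numbers were ignored, the number of calls depended on single samples. It was 0 without DMSO replicate 1, DMSO replicate 3, DMSO replicate 4 or IOX5 replicate 3, 1 (*Pgk1*) without DMSO replicate 2, 2 (*Pfkl* and *Pgk1*) without IOX5 replicate 2, 4 (*Gpi1*, *Pfkl*, *Eno1* and *Pkm*) without IOX5 replicate 1 and 7 without IOX5 replicate 4. In each of these 8 fits, 8 of the 10 genes had an unadjusted p under 0.05 by edgeR. Calls over the whole table moved likewise. Without DMSO replicate 1, 2, 3 or 4, edgeR called 7, 10, 0 or 0 of all genes higher and 4, 7, 0 or 0 lower. Without IOX5 replicate 1, 2, 3 or 4, it called 36, 53, 0 or 130 higher and 35, 76, 0 or 333 lower. Between 12535 and 12630 genes were tested in these fits. Over all genes, the number under 0.05 ranged from 1846 of 12575 without DMSO replicate 4 to 2900 of 12630 without IOX5 replicate 4. Samples with the same number varied together, and with the number as a block in the edgeR fit 8 genes rose, the 7 above and *Aldoc*, against 11.2% of all genes higher and 9.43% lower. The same 8 were called in each of the 4 blocked fits that left out 1 number. Without number 1, 2, 3 or 4 these fits called 994, 1119, 642 or 1355 of all genes higher. They called 650, 1016, 403 or 1058 lower, among 12319 to 12479 genes tested. DESeq2 called the same number, 8, against 3.94% of all genes. Of the 12 other genes of the same steps 5 were tested, too few to set against these shares, with 0 called by edgeR without the block, 1 (*Gapdh*) with it and the same 1 by DESeq2, and a median log2 fold change of 0.12. With 1 number left out of the blocked fit, 0 to 2 of these 5 were called.

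**Figure D1:**
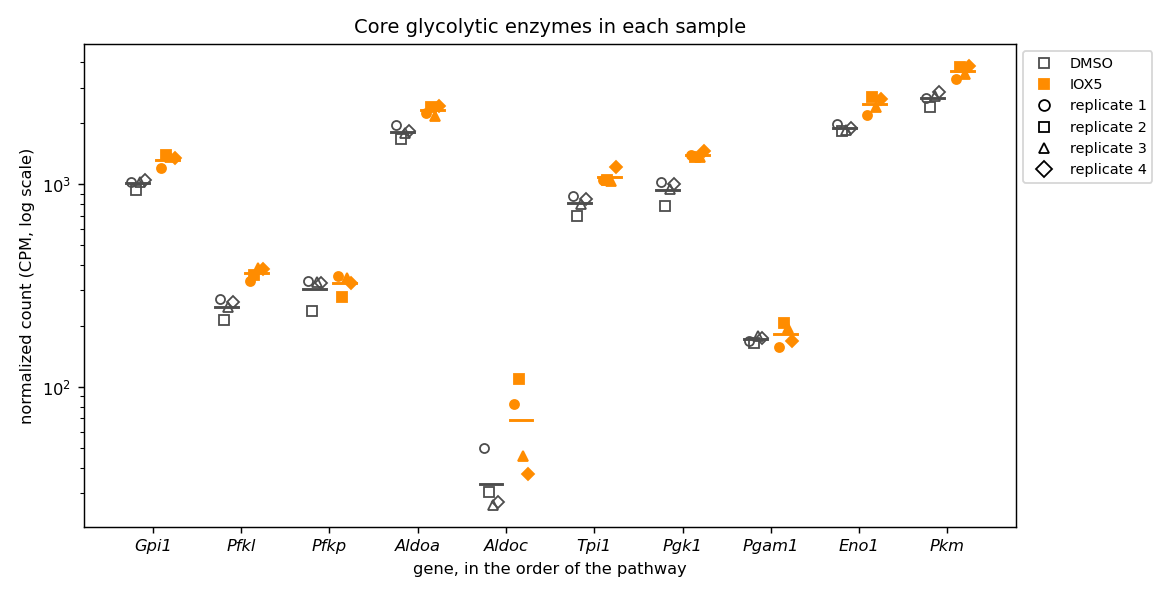
CPM on a log axis for each of the 10 genes in the order of the pathway, with 1 point per sample (open, DMSO; filled, IOX5; marker shape, replicate number) and a line at each group mean. The groups are separate for *Gpi1*, *Pfkl*, *Aldoa*, *Tpi1*, *Pgk1*, *Eno1* and *Pkm* and overlap for *Pfkp*, *Aldoc* and *Pgam1*.

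**Figure D2:**
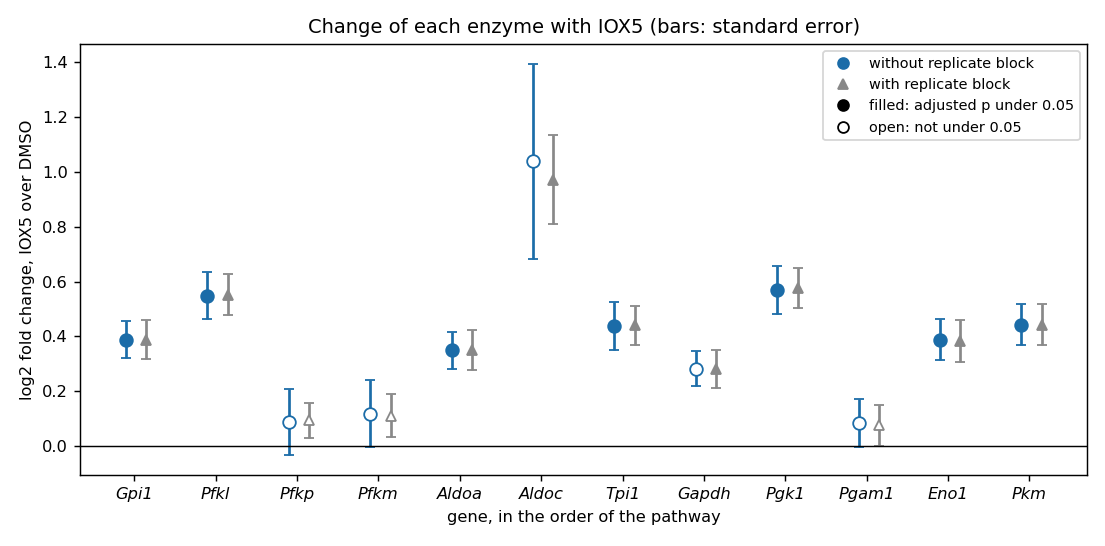
The log2 fold change of IOX5 over DMSO with its standard error for the 10 genes, *Pfkm* and *Gapdh*, from edgeR without the replicate block (circles) and with it (triangles), filled where the adjusted p is under 0.05. *Pfkp*, *Pfkm* and *Pgam1* lie closest to 0, and *Aldoc* has the largest value (1.04) and the longest bar.

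*Gpi1* (ENSMUSG00000036427, GRCm38 chromosome 7, 34201330 to 34230336) encodes glucose-6-phosphate isomerase, which turns glucose 6-phosphate into fructose 6-phosphate. Its values were 1023, 939.6, 1030.5 and 1054 CPM in DMSO replicates 1 to 4 and 1199, 1395, 1356 and 1348 CPM in IOX5 replicates 1 to 4. The lowest IOX5 value, in replicate 1, was above the highest DMSO value, in replicate 4. *Gpi1* rose from a mean of 1012 ± 49.8 to 1325 ± 86.2 CPM (± SD over n = 4 samples a group), a log2 fold change of 0.39 ± 0.066 (SE, edgeR adjusted p = 0.0296).

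Phosphofructokinase, the committed step that phosphorylates fructose 6-phosphate, was the step with the most evenly used isozymes. *Pfkl* (ENSMUSG00000020277, GRCm38 chromosome 10, 77986947 to 78010083) encodes the liver-type subunit and was measured at 272, 215, 247 and 262 CPM in DMSO replicates 1 to 4 and 334, 355, 387 and 381 CPM in IOX5 replicates 1 to 4. It rose from a mean of 249 ± 24.8 to 364 ± 24.5 CPM (± SD over n = 4 samples a group), a log2 fold change of 0.55 ± 0.085 (SE, edgeR adjusted p = 0.0254). *Pfkp* (ENSMUSG00000021196, GRCm38 chromosome 13, 6579768 to 6648777), the platelet-type subunit, was measured at 332, 238, 329 and 325 CPM in DMSO replicates 1 to 4 and 353, 278, 344 and 326 CPM in IOX5 replicates 1 to 4. DMSO replicate 2 lay well below the other samples of its group, and the groups overlapped. The log2 fold change of *Pfkp* was 0.087 ± 0.12 (SE, edgeR adjusted p = 0.728), and without DMSO replicate 2 it was −0.016. The muscle-type subunit *Pfkm* was at 34.6 ± 3.33 CPM with DMSO and 37.5 ± 5.53 CPM with IOX5 (SD, n = 4 each), with a log2 fold change of 0.12 ± 0.12 (SE, edgeR adjusted p = 0.634). With the block, the edgeR adjusted p was 0.000401 for *Pfkl*, 0.315 for *Pfkp* and 0.322 for *Pfkm*. The upstream windows printed above held 3 matches to the HIF core letters for *Pfkp* and 1 for *Pfkl*. A relation between matches and change was not tested.

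A ratio between isozymes within a sample does not depend on library scaling. The log2 ratio of *Pfkl* to *Pfkp* was −0.29, −0.15, −0.41 and −0.31 in DMSO replicates 1 to 4 and −0.079, 0.35, 0.17 and 0.23 in IOX5 replicates 1 to 4. Every IOX5 sample was above every DMSO sample, and the mean was higher by 0.46 (p = 0.0286 in an exact two-sided permutation test, which with 4 against 4 samples can give no smaller value, and 0.0571 after adjustment over 4 isozyme pairs). The log2 ratio of *Pfkl* to *Pfkm* was 2.89, 2.83, 2.71 and 2.94 in DMSO replicates 1 to 4 and 3.08, 3.58, 3.19 and 3.28 in IOX5 replicates 1 to 4, again without overlap and higher by 0.44 (exact two-sided permutation test, p = 0.0286, adjusted p = 0.0571). *Pfkp* to *Pfkm* differed by −0.015 between the groups (exact two-sided permutation test, p = 0.857, adjusted p = 0.857). After adjustment 0 of the 4 pairs passed 0.05, and 2 had an unadjusted p under it. The ratio of *Pfkl* to *Pfkp* was higher in 4 of 4 same-numbered pairs (exact sign-flip permutation test over the pairs, adjusted p = 0.167, a test that cannot pass 0.05 with 4 pairs).

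**Figure D3:**
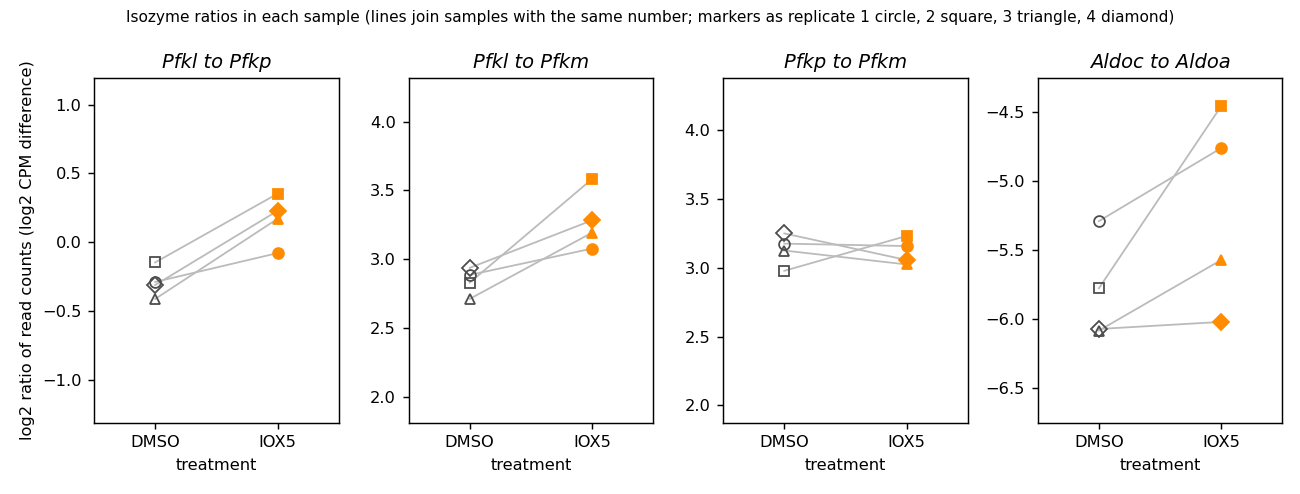
The log2 ratio of reads of *Pfkl* to *Pfkp*, *Pfkl* to *Pfkm*, *Pfkp* to *Pfkm* and *Aldoc* to *Aldoa* in each DMSO and IOX5 sample, on axes of equal span, with lines joining samples of the same number. All lines rise in the panels with *Pfkl* and in that of *Aldoc* to *Aldoa*, and the groups are separate only in the panels with *Pfkl*.

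Of the phosphofructokinase reads per kilobase of exon, *Pfkl* made up 53.3, 54.6, 50.9 and 53.3% in DMSO replicates 1 to 4 and 56.8, 64.3, 60.2 and 61.4% in IOX5 replicates 1 to 4. The mean share was 53.0% ± 1.57 with DMSO and 60.7% ± 3.10 with IOX5 (SD, n = 4 each), without overlap. The shares of *Pfkp* were 32.3% ± 1.54 and 26.9% ± 2.07 (SD, n = 4 each), and those of *Pfkm* 14.7% ± 0.767 and 12.4% ± 1.23 (SD, n = 4 each). By the 2 lengths used here *Pfkl* was thus the leading isozyme per length in both groups, although *Pfkp* had more reads in every DMSO sample. Shorter *Pfkp* transcripts, such as that of 4145 bases, were not used as the length. With that length, and the longest transcript for *Pfkl*, *Pfkp* would stand above *Pfkl* with DMSO. Which isozyme leads with DMSO is therefore not settled by these counts. With the longest transcript as the length the shares of *Pfkl* were 58.6% and 66.0%, so the level of the share depended on the length used. The direction of the change did not differ between these lengths.

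**Figure D4:**
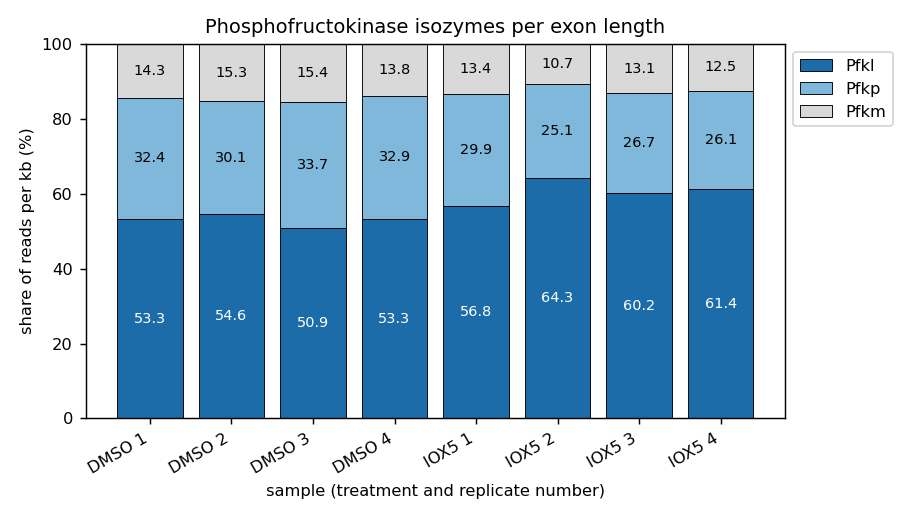
Stacked bars of the share (%) of phosphofructokinase reads per kilobase of exon from *Pfkl*, *Pfkp* and *Pfkm* in each of the 8 samples. *Pfkl* holds 50.9% to 54.6% in the DMSO samples and 56.8% to 64.3% in the IOX5 samples.

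Aldolase splits fructose 1,6-bisphosphate into both triose phosphates. *Aldoa* (ENSMUSG00000030695, GRCm38 chromosome 7, 126795234 to 126800751) was measured at 1958, 1678, 1794 and 1842 CPM in DMSO replicates 1 to 4 and 2243, 2410.3, 2181 and 2429.8 CPM in IOX5 replicates 1 to 4, and the groups did not overlap. It rose from a mean of 1818 ± 116 to 2316 ± 123 CPM (± SD over n = 4 samples a group), a log2 fold change of 0.35 ± 0.066 (SE, edgeR adjusted p = 0.0409). *Aldoc* (ENSMUSG00000017390, GRCm38 chromosome 11, 78322968 to 78327781), the isozyme best known from brain, was measured at 49.8, 30.4, 26.2 and 27.2 CPM in DMSO replicates 1 to 4 and 82.6, 109.7, 45.6 and 37.2 CPM in IOX5 replicates 1 to 4. Its spread was the widest of the 10 genes, with a coefficient of variation of 33.2% in DMSO and 48.9% in IOX5, and IOX5 replicates 3 and 4 lay below DMSO replicate 1. The log2 fold change of *Aldoc*, 1.04 ± 0.36 (SE, edgeR adjusted p = 0.153), was the largest of the 10 and did not pass the test without the block. With the replicate number as a block its adjusted p was 0.00134 by edgeR, all 4 same-numbered pairs being higher with IOX5, by 0.73, 1.85, 0.80 and 0.45 on the log2 scale for numbers 1 to 4. DESeq2 without a block gave an adjusted p of 0.0253. Of aldolase reads per kilobase, *Aldoc* accounted for 2.22, 1.59, 1.29 and 1.30% in DMSO replicates 1 to 4 and 3.18, 3.90, 1.83 and 1.35% in IOX5 replicates 1 to 4. The log2 ratio of *Aldoc* to *Aldoa* had a mean that was 0.60 above that of DMSO in the IOX5 group (exact two-sided permutation test, p = 0.200, adjusted p = 0.267), and 0.36 above it without IOX5 replicate 2.

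The levels of macrophage markers are given beside those of *Aldoc*. Summed over 9 macrophage genes, the level was 151, 137, 75.0 and 95.0 CPM in DMSO replicates 1 to 4 and 199.8, 432, 161 and 133 CPM in IOX5 replicates 1 to 4. IOX5 replicate 2 was the highest sample both for this sum and for *Aldoc*. *Adgre1* was at 43.3 ± 10.4 CPM with DMSO and 102 ± 46.5 CPM with IOX5 (SD, n = 4 each), and *Cd68*, about as abundant with DMSO, at 43.6 ± 9.38 CPM with DMSO and 56.8 ± 27.9 CPM with IOX5 (SD, n = 4 each). Of the 9 genes, 6 were tested, 0 passed without the block and 3 (*Adgre1*, *Mrc1* and *Msr1*) were higher with it by edgeR, beside 0.774% and 11.2% of all genes. DESeq2 without a block called *Adgre1* (adjusted p = 0.000576) and *Mrc1* (adjusted p = 0.00224). The part of these cells in the *Aldoc* values was not tested.

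*Tpi1* (ENSMUSG00000023456, GRCm38 chromosome 6, 124810586 to 124814296) encodes triosephosphate isomerase, which interconverts the triose phosphates. It was measured at 876, 697, 802 and 842 CPM in DMSO replicates 1 to 4 and 1049, 1052, 1039 and 1219.6 CPM in IOX5 replicates 1 to 4. IOX5 replicate 4 lay above the other IOX5 samples, which were close together, and all 4 were above the DMSO samples. *Tpi1* rose from a mean of 804 ± 77.8 to 1089.8 ± 86.7 CPM (± SD over n = 4 samples a group), a log2 fold change of 0.44 ± 0.087 (SE, edgeR adjusted p = 0.0455), the adjusted p closest to the threshold among the 7 calls.

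The next step belongs to *Gapdh*, glyceraldehyde-3-phosphate dehydrogenase, which is outside the 10 and was measured at 1078, 1055, 1113 and 1134 CPM in DMSO replicates 1 to 4 and 1205, 1426, 1318 and 1380.0 CPM in IOX5 replicates 1 to 4. Although the groups did not overlap, its log2 fold change of 0.28 ± 0.065 (SE, edgeR adjusted p = 0.0590) missed the threshold, and it was called with the replicate block (adjusted p = 0.0119 by edgeR) and by DESeq2 without a block (adjusted p = 0.000562). The call with the block was not kept in every blocked fit that left out 1 number. The sperm isozyme *Gapdhs* held 4 reads in all 8 samples.

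*Pgk1* (ENSMUSG00000062070, GRCm38 chromosome X, 106187100 to 106203699) encodes phosphoglycerate kinase, the first of the pathway's steps that yield ATP. Its values were 1027, 784, 950.2 and 1002 CPM in DMSO replicates 1 to 4 and 1398, 1362, 1361 and 1459 CPM in IOX5 replicates 1 to 4. The 4 IOX5 samples lay close together and far above the DMSO samples, whose lowest was replicate 2. The log2 fold change of 0.57 ± 0.086 (SE, edgeR adjusted p = 0.0254) was the largest among the 7 genes called, and leaving out single samples gave between 0.49 and 0.61. The test was passed without IOX5 replicate 2, IOX5 replicate 4 or DMSO replicate 2, and without the others the adjusted p reached up to 0.0959 by edgeR. *Pgk2*, the testis isozyme, had 0 reads.

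*Pgam1* (ENSMUSG00000011752, GRCm38 chromosome 19, 41911923 to 41918660) encodes phosphoglycerate mutase and was the exception in the lower part of the pathway. Its values were 169, 165, 178 and 175 CPM in DMSO replicates 1 to 4 and 158, 206, 195 and 169 CPM in IOX5 replicates 1 to 4. IOX5 replicate 1 was the lowest of all 8 samples and IOX5 replicate 2 the highest, so the IOX5 group enclosed the DMSO group. The log2 fold change of *Pgam1* was 0.084 ± 0.088 (SE, edgeR adjusted p = 0.636), 2 of 4 same-numbered pairs were higher with IOX5, and the adjusted p with the block was 0.492 by edgeR. *Pgam2*, the muscle isozyme, held 1 read in all samples. The bisphosphoglycerate mutase *Bpgm*, which makes the red-cell regulator of hemoglobin from a glycolytic intermediate, was at 16.9 CPM with DMSO and 17.3 CPM with IOX5.

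*Eno1* (ENSMUSG00000063524, GRCm38 chromosome 4, 150236721 to 150248879) encodes the α form of enolase and was measured at 1982, 1835, 1851 and 1904 CPM in DMSO replicates 1 to 4 and 2189, 2684, 2406 and 2636 CPM in IOX5 replicates 1 to 4. It rose from a mean of 1893 ± 66.0 to 2479 ± 228 CPM (± SD over n = 4 samples a group), a log2 fold change of 0.39 ± 0.074 (SE, edgeR adjusted p = 0.0409), with no overlap between the groups. Per kilobase of exon it made up 99.2% ± 0.0913 of enolase reads with DMSO and 99.3% ± 0.0620 with IOX5 (SD, n = 4 each). The neuronal *Eno2* held 15 reads in all samples, below the filter, so its ratio to *Eno1* was not tested, and *Eno4* held 7. The muscle form *Eno3* was at 3.13 ± 0.578 CPM with DMSO and 3.03 ± 0.437 CPM with IOX5 (SD, n = 4 each). The copy *Eno1b* was at 1.75 ± 0.248 CPM with DMSO and 2.86 ± 0.890 CPM with IOX5 (SD, n = 4 each), although most stretches of read length in *Eno1* cannot be assigned to one gene.

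*Pkm* (ENSMUSG00000032294, GRCm38 chromosome 9, 59656368 to 59679375) encodes the pyruvate kinase of most tissues, which makes pyruvate and ATP, and had the most reads of the 10. It was measured at 2661, 2404, 2719 and 2858 CPM in DMSO replicates 1 to 4 and 3308, 3807, 3509.7 and 3836 CPM in IOX5 replicates 1 to 4. All IOX5 samples were above all DMSO samples, and *Pkm* rose from a mean of 2660.4 ± 189.8 to 3615 ± 252 CPM (± SD over n = 4 samples a group), a log2 fold change of 0.44 ± 0.074 (SE, edgeR adjusted p = 0.0282). Counts per gene do not separate the splice forms PKM1 and PKM2. *Pklr*, the pyruvate kinase of liver and red cells, held 58 reads in all samples.

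The steps were then compared with their neighbors by the log2 ratio of summed CPM of all isozymes of a step to that of the next. Phosphoglycerate kinase had the largest percent change of any step, 49.0%, and phosphoglycerate mutase the smallest, 5.47%. The other steps lay between 21.5% (*Gapdh*) and 35.9% (*Pkm*). The ratio of *Gapdh* and *Gapdhs* to *Pgk1* was lower with IOX5 by 0.29 on the log2 scale, that of *Pgk1* to *Pgam1* and *Pgam2* was higher by 0.50 and that of *Pgam1* and *Pgam2* to the enolases was lower by 0.31. Each of these 3 had an exact two-sided permutation p of 0.0286, the smallest possible, and an adjusted p of 0.0762 over the 8 neighbors. The other 5 ratios had unadjusted exact permutation p-values of 0.171 to 0.6, so that 0 of 8 passed after adjustment and 3 before it.

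The size of the difference was not even over the same-numbered pairs of samples. The difference of IOX5 minus DMSO was largest in pair 2 for 10 of 10 genes, as it was for 34.2% of all genes tested. DMSO replicate 2 was the lowest DMSO sample for 9 of the 10, against 31.3% of all genes. The median difference over the 10 genes was 0.24, 0.58, 0.38 and 0.44 on the log2 scale in pairs 1 to 4. Every gene but *Pgam1* was higher with IOX5 in all 4 pairs, including *Pfkp*, whose differences were 0.087, 0.22, 0.065 and 0.0026. Without number 2 in the blocked fit, 8 genes were still called, and the log2 fold change of *Pgam1* was −0.0026.

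**Figure D5:**
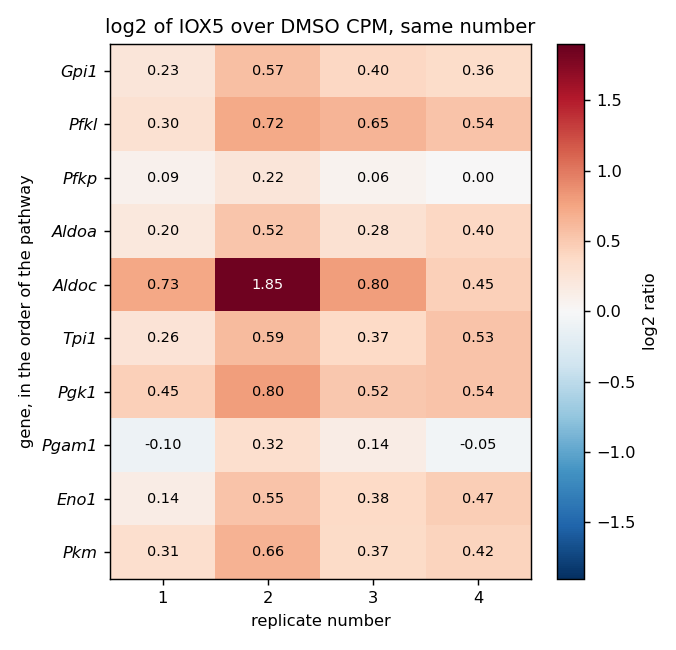
The log2 difference of IOX5 minus DMSO CPM in each same-numbered pair (columns) for the 10 genes (rows), printed in each cell and colored from blue (lower with IOX5) to red (higher). The column of pair 2 holds the largest value of every row, and the only values below 0 are those of *Pgam1* in pairs 1 and 4.

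*Pfkp*, *Pgam1* and *Aldoc* had the lowest correlations with the other genes over the 8 samples. As a description, the Pearson correlation of log2 CPM with the mean of the other 9 genes was 0.328 for *Pfkp*, 0.377 for *Pgam1* and 0.609 for *Aldoc*, and between 0.927 and 0.974 for the other 7, over samples that include both treatments. These values therefore also reflect which genes differed between the treatments. With group means removed, correlations with single other members ranged from −0.24 to 0.82 for *Pfkp*, −0.21 to 0.77 for *Pgam1* and −0.19 to 0.31 for *Aldoc*. The 10 genes outside the list whose pattern over these 8 samples was most like the mean of the members were *Il15* (r = 0.986), *Dap* (0.984), *Ldha* (0.981), *Crlf2* (0.980), *Gys1* (0.978), *Pygl* (0.976), *Trappc6a* (0.975), *Sfxn3* (0.973), *Tmub2* (0.973) and *Nol4l* (0.970). Among them, *Ldha* encodes the lactate dehydrogenase subunit that acts on pyruvate, *Gys1* glycogen synthase and *Pygl* glycogen phosphorylase. *Pygl* was at 218 CPM with DMSO and 347 with IOX5 (log2 fold change 0.67, adjusted p = 0.0175 by edgeR), and *Gys1* at 83.7 and 119.8 (log2 fold change 0.52, adjusted p = 0.0526, and 0.00207 with the replicate block).

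Around these steps, the fold change was above 0 for 12 of the 15 tested genes that bring glucose in and carry pyruvate onward. Of 18 such genes 15 were tested, 2 rose and 0 fell by edgeR without the block, beside 0.774% and 1.25% of all genes (0 to 2 rose with single samples left out). DESeq2 without a block called 5 higher (*Slc2a1*, *Hk1*, *Hk3*, *Ldha* and *Pdk1*) and 1 lower (*Slc16a1*), beside 3.94% and 4.85% of all genes. The median log2 fold change was 0.20, against 0.017 over all genes. *Ldha* rose from a mean of 1845 ± 156 to 2394 ± 93.0 CPM (± SD over n = 4 samples a group), a log2 fold change of 0.38 ± 0.071 (SE, edgeR adjusted p = 0.0410). *Pdk1*, the kinase that restrains pyruvate entry into mitochondrial oxidation, rose from a mean of 168 ± 17.5 to 267 ± 7.02 CPM (± SD over n = 4 samples a group), a log2 fold change of 0.67 ± 0.079 (SE, edgeR adjusted p = 0.0157). With the block edgeR called 6 higher and 3 lower, against 11.2% and 9.43% of all genes, and with number 1, 2, 3 or 4 left out 7, 6, 5 or 6 were higher and 1, 2, 1 or 1 lower. The additional higher genes were the glucose transporter *Slc2a1* (log2 fold change 0.43, adjusted p = 0.0689, and 0.00399 with the block), the hexokinases *Hk1* (0.30, 0.126 and 0.00984) and *Hk3* (0.43, 0.108 and 0.000991) and the lactate exporter *Slc16a3* (0.71, 0.335 and 0.00618). The lower genes were the monocarboxylate transporter *Slc16a1* (−0.51, 0.126 and 0.000418), the ADP-dependent glucokinase *Adpgk* (−0.20, 0.139 and 0.0430) and the fructose bisphosphatase-like *Tigar* (−0.26, 0.572 and 0.0423). The other lactate dehydrogenase gene, *Ldhb*, held 55 reads and was not tested. The 4 *Pfkfb* genes, whose enzymes set the level of the activator of phosphofructokinase, had log2 fold changes of 0.034 (*Pfkfb1*), 0.17 (*Pfkfb2*), 0.047 (*Pfkfb3*) and 0.20 (*Pfkfb4*), with none called by edgeR with or without the block.

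Summed markers of other blood cells are given beside the results above, and the sum was higher with IOX5 in all 4 same-numbered pairs for each list examined, the progenitor, B cell and stromal lists included, except that of T cells. Of all genes tested, 0.774% were higher by edgeR without the block, 11.2% with it and 3.94% by DESeq2 without a block, and the counts below stand beside these shares. The 9 granulocyte genes summed to 1394, 1815, 1238 and 1032 CPM in DMSO replicates 1 to 4 and 1604, 2627, 1497 and 1373 CPM in IOX5 replicates 1 to 4, led by *Elane*, with 6 of 8 tested higher with the block by edgeR, 0 without it and 1 (*Ly6g*) by DESeq2. The 9 mast cell and basophil genes summed to 269.7, 188, 725 and 654 CPM in DMSO replicates 1 to 4 and 329.8, 364, 1137 and 909.7 CPM in IOX5 replicates 1 to 4, led by *Gata2* with DMSO and *Mcpt8* with IOX5, and 8 of 8 tested were higher with the block by edgeR, against 0 without it and 0 by DESeq2. In that list numbers 3 and 4 were higher than numbers 1 and 2 in both groups. The 7 megakaryocyte genes summed to 60.5, 26.8, 71.1 and 72.8 CPM in DMSO replicates 1 to 4 and 93.1, 91.4, 151 and 114 CPM in IOX5 replicates 1 to 4, led by *Itga2b*, with *Gp1bb* at 0 reads. Of the 6 tested, 4 (*Pf4*, *Itga2b*, *Ppbp* and *Vwf*) were higher with the block by edgeR, *Vwf* also without it (adjusted p = 0.0442), and DESeq2 called *Vwf* and *Ppbp*. The 7 erythroid genes summed to 28.0, 5.83, 16.7 and 23.5 CPM in DMSO replicates 1 to 4 and 41.7, 11.0, 33.2 and 43.2 CPM in IOX5 replicates 1 to 4, led by *Hbb-bt*, with 2 of 5 tested (*Hbb-bs* and *Hbb-bt*) higher with the block by edgeR, 0 without it and 0 by DESeq2, and the T cell genes summed to at most 0.260 CPM in any sample. Of the 12 progenitor genes that include *Kit*, *Hoxa9* and *Mpo*, all tested, 0 were called without the block and 6 were higher with it by edgeR, and DESeq2 called 0. The B cell list was nearly all *Ighm* (48.5 and 55.2 CPM) and the stromal and endothelial list nearly all *Pecam1* (142 and 189 CPM), which blood cells also express and which was higher with the block by edgeR (adjusted p = 0.00134) but not without it (adjusted p = 0.369). The part of these cells in the glycolytic values was not tested.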

How the data were processed

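RNA-seq was analyzed for 8 samples, grouped by the treatment in their labels. Per the methods, the authors made directional libraries from poly(A) RNA, read 85 bases from a single end, trimmed reads with cutadapt (version 1.18 in the submitters' processing notes), mapped them to GRCm38 with HISAT2 2.2.1 and deposited raw counts per Ensembl gene from htseq-count (HTSeq 2.0.1). The 5 summary lines per file, 20.6% to 22.6% of reads, were left out. Of 54838 identifiers 54809 matched GENCODE M21.

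Counts were filtered with filterByExpr (12405 genes kept), scaled with TMM and tested with edgeR 4.0.16 in R 4.3.3 without a block. The Benjamini-Hochberg threshold was 0.05. CPM values use TMM factors, and log2 ratios use a prior count of 2. Ratios were tested by exact permutation of 70 assignments. Alternatives were DESeq2 1.42.0, RLE and upper-quartile factors, other filters, a replicate block, other lengths and each sample left out. The blocked fits without 1 number were added after seeing the data. Samples sharing a number in their titles deviated together from their group means (r = 0.758, 0.744, 0.732 and 0.636 for numbers 1 to 4), but numbers 3 and 4 were not told apart, as DMSO 4 correlated more with IOX5 3 (r = 0.685). The members and gene lists were chosen with earlier results of these data known. Named were all members, called genes and isozymes of the pathway lists, and the 10 genes most alike. Protein sequences were not used here.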

Additional observations from a re-analysis of the deposited data

Results flagged for a closer look

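Among 28 sets of 4 samples examined (the 10 genes with *Pfkm*, *Gapdh*, *Eno1b* and *Eno3*, in each group), 2 held a sample far from the others by Dixon's criterion at 95%, and chance gives about 1 in 20. *Pfkp* in DMSO replicate 2 was at 238 CPM, whereas the other DMSO samples lay between 325 and 332 CPM. *Tpi1* in IOX5 replicate 4 was at 1219.6 CPM, whereas the other IOX5 samples lay between 1039 and 1052 CPM.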

How the results depend on the processing

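Direction was kept by 8 of the 10 genes under all 18 alternatives. The log2 fold change of *Pfkp* was −0.016 without DMSO replicate 2 (up to 0.16 when other single samples were left out), and that of *Pgam1* −0.0026 with the replicate block and without replicate 2. The 7 calls were kept with RLE and upper-quartile factors and with at least 10 counts in every sample, and fell to 2 with no filter, where 25386 genes were tested. Leaving out single samples gave 0 to 7 calls, and the replicate block without each number gave 8. Over all genes, DESeq2 called 489 higher and 602 lower, the replicate block 1394 and 1170, and no filter 73 lower. Leaving out single samples gave 0 to 130 higher and 0 to 333 lower, and in the 3 fits with 0 calls 1969, 1846 and 2111 genes had an unadjusted p under 0.05 by edgeR. The block without number 1, 2, 3 or 4 gave 994, 1119, 642 or 1355 higher and 650, 1016, 403 or 1058 lower. The log2 ratio of *Pfkp* to *Pfkm* differed by −0.066 to 0.025 with single samples left out, being above 0 without DMSO replicate 4 (0.025), IOX5 replicate 3 (0.016) or IOX5 replicate 4 (0.0058). For phosphofructokinase to aldolase the range was −0.12 to 0.013, above 0 only without IOX5 replicate 2. The cause was not tested. For *Aldoc* to *Aldoa* the range was 0.36 (without IOX5 replicate 2) to 0.88. Of the pairs and neighbors, 0 passed after adjustment with raw counts plus 0.5 or with single samples left out. An exact p of at least 0.0286 passes adjustment only if most tests of a set reach that value. A count of 0 thus tells little of stability. The paired analysis of these ratios could not have passed 0.05 with 4 pairs and tells nothing of stability. With 4 samples a group, an exact p cannot fall below 0.0286, and multi-mapped reads limit *Pgk1*, *Eno1* and *Pgam1*.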

Other observations

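Of 14 genes of the pentose phosphate, glycerol phosphate, serine and hexosamine branches, all tested, 1 rose and 0 fell by edgeR without the block, beside 0.774% and 1.25% of all genes, with a median log2 fold change of −0.044. With single samples left out, 0 or 1 rose and 0 or 1 fell. DESeq2 without a block called 2 higher (*Taldo1* and *Pgls*) and 3 lower (*Gpd1l*, *Gpd2* and *Psat1*), beside 3.94% and 4.85% of all genes. *Taldo1*, the transaldolase of the pentose phosphate pathway, rose from a mean of 399 ± 14.6 to 508 ± 23.5 CPM (± SD over n = 4 samples a group), a log2 fold change of 0.35 ± 0.057 (SE, edgeR adjusted p = 0.0260). With the replicate block *Pgls*, which hydrolyzes 6-phosphogluconolactone, was also higher (log2 fold change 0.47, adjusted p = 0.0506, and 0.00199 with the block), and 3 genes were lower. These were *Phgdh* and *Psat1*, enzymes of serine synthesis from 3-phosphoglycerate, and the mitochondrial glycerol-3-phosphate dehydrogenase *Gpd2*. *Psat1* was measured at 525, 489, 467 and 468 CPM in DMSO replicates 1 to 4 and 448, 313, 319.6 and 387 CPM in IOX5 replicates 1 to 4, without overlap, a log2 fold change of −0.41 ± 0.11 (SE, edgeR adjusted p = 0.0980), and 0.00240 with the block. *Phgdh* had a log2 fold change of −0.34 ± 0.12 (SE, edgeR adjusted p = 0.171), and 0.00899 with the block, and *Gpd2* one of −0.22 ± 0.053 (SE, edgeR adjusted p = 0.0663), and 0.0241 with the block. The 2 higher and 3 lower of 14 genes with the block stand beside 11.2% and 9.43% of all genes, and the lower calls numbered 1 without number 3 in the blocked fit.

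Of 7 genes of gluconeogenesis 4 were tested and 0 were called without the block in edgeR or DESeq2. With the block *Fbp1*, which reverses the phosphofructokinase step, was higher (log2 fold change 1.03, adjusted p = 0.555, and 0.000256 with the block), and *Pck2*, the mitochondrial phosphoenolpyruvate carboxykinase, lower (log2 fold change −0.38, adjusted p = 0.199, and 0.00426 with the block). These are 1 higher and 1 lower of 4, beside the same shares of all genes, and the lower call was lost without number 3 in the blocked fit. *Fbp1* was low, at 7.27, 0.311, 9.59 and 7.34 CPM in DMSO replicates 1 to 4 and 13.8, 0.888, 18.1 and 17.3 CPM in IOX5 replicates 1 to 4.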
